A study of Mus musculus with 8 samples.

Results

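The genes described here are 10 genes of epidermal T cells and of leukocytes in general, namely Cd3e, Cd3d, Cd3g, Cd247, Lck, Ptprc, Coro1a, Tyrobp, Fcer1g and Cd52. They were found on the array through the RefSeq accession of each probe, which gave 11 probes for the 10 genes among 36799 genes and other targets. Expression was profiled in the back skin epidermis of newborn (P0) C57BL/6 mice, in 4 EED cKO and 4 control samples that the labels call biological replicates. EED cKO mice were K14-Cre; EED flox/flox, so that Eed, a subunit of the repressive chromatin complex PRC2, is deleted where the keratin 14 promoter is active, in the epithelial cells of the epidermis. The Cre is not directed at leukocytes. The labels give the control animals the same strain and age but not their alleles. The epidermis was released with dispase, dissociated with trypsin and measured whole, without a sort, so fewer leukocytes and less RNA per leukocyte cannot be told apart.

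Mouse epidermis holds resident T cells, most of them dendritic epidermal T cells that carry a gamma-delta receptor, and Langerhans cells, the antigen-presenting cells of the epithelium. The T cell receptor has no signaling tail of its own and depends on the CD3 chains epsilon, delta and gamma (Cd3e, Cd3d and Cd3g) and on the zeta chain (Cd247), whose ITAM motifs are phosphorylated by the kinase Lck. Tyrobp (DAP12) and Fcer1g (the Fc receptor gamma chain) are ITAM adaptors that do the same work for activating receptors of myeloid and natural killer cells. Ptprc (CD45) is the receptor phosphatase that marks leukocytes, Coro1a is a leukocyte actin regulator, and Cd52 is a small glycoprotein of the leukocyte surface.

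Each array compared a sample with Universal Mouse Reference RNA. The sample was labeled with Cy3 on replicates 1 and 3 and with Cy5 on replicates 2 and 4 of each genotype. Values are log2 ratios of sample over reference after background correction and loess normalization, and this reference, an RNA pool sold for the purpose, was the same on every array, so ratios of 1 probe can be compared between arrays but not between probes. The log2 ratio of Eed itself was -1.80 ± 0.17 on the 4 EED cKO arrays and -0.35 ± 0.13 on the 4 control arrays (mean ± SD). The share of spots above background in the sample channel ranged from 49.4% to 63.2%. The 11 tested keratinocyte markers were above background on all 8 arrays. The 8 arrays shared 1 slide, where each genotype filled a row of its own, so slide row and genotype cannot be told apart. Y-linked genes were high only in control replicates 2 and 3 (mean log2 ratio 1.19 and 1.02, against -1.51 to -1.31 on the other arrays), so the sexes were not balanced between the genotypes.

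Of the 10 genes, 9 were above background on all 8 arrays and were tested. Cd247 was the exception. In the limma fit with the dye as a covariate, 1 of the 9, Cd3e, was higher in EED cKO at an adjusted p below 0.05, and 0 were lower. Over all 23236 tested targets, 21.6% were called in either direction, 11.8% higher and 9.89% lower. With median centring in place of loess, 39.8% of all calls were higher, against 54.3% with loess. None of the 9 genes reached a 2-fold change with an adjusted p below 0.05, as 1.2% of all tested targets did. The EED cKO and control arrays did not overlap for 1 of the 9, again Cd3e, against 17.1% of all tested targets. Thus 1 gene of 9 called higher is close to the share on the array as a whole, and it is not a result about the list. The median log2 fold change of the 9 was 0.09, beside 0.02 over all tested targets.

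**Figure D1:**
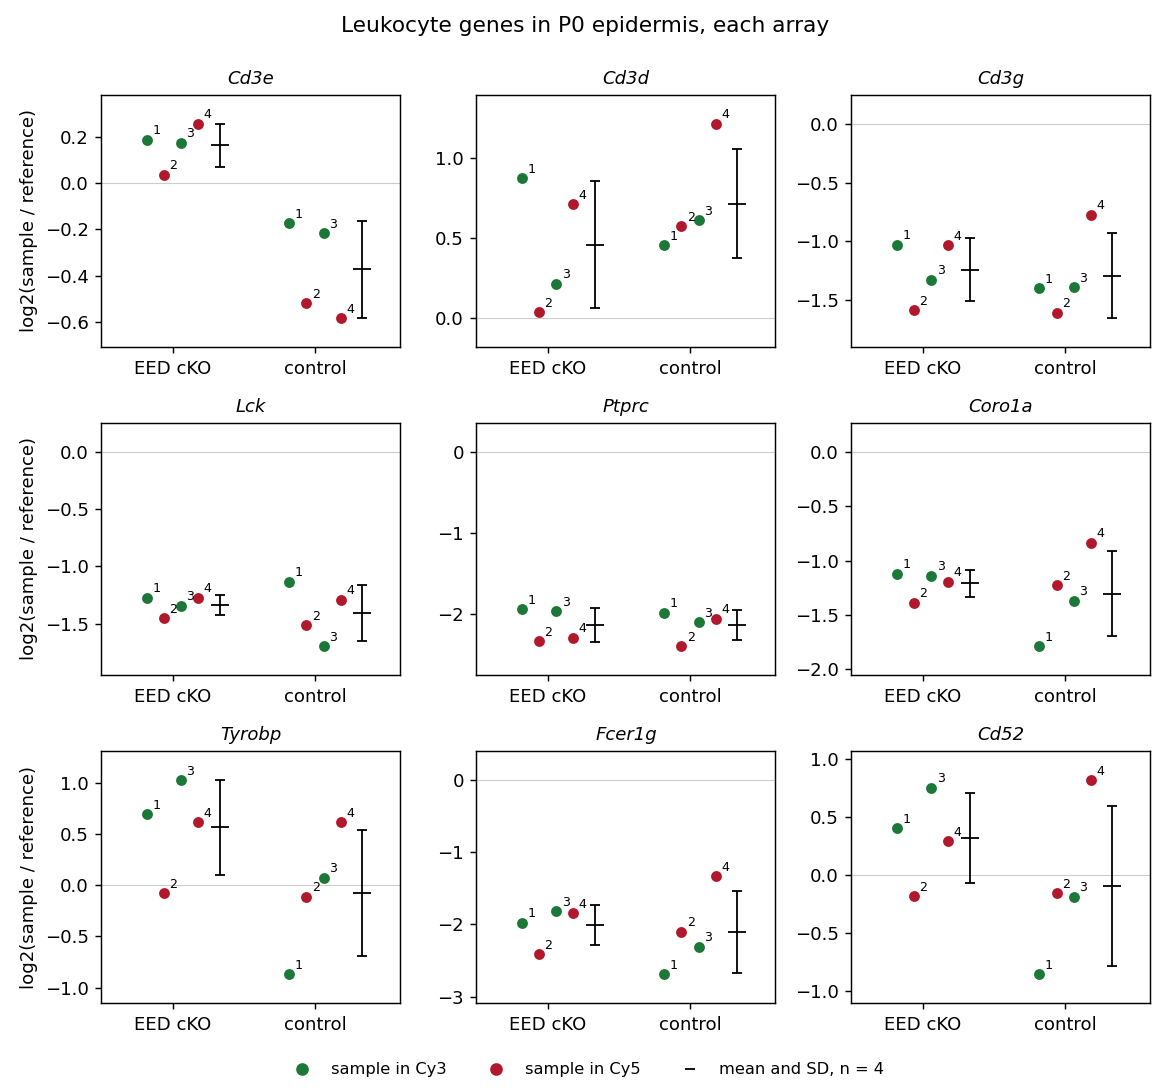
Log2 ratio of sample over reference (vertical axis, each panel with its own scale) of the 9 tested genes on each array, with the replicate number beside the point, the sample dye by colour, and mean ± SD of 4 arrays per genotype as a bar. The 4 EED cKO arrays lie above the 4 control arrays for Cd3e (0.04 to 0.26 against -0.58 to -0.17), whereas the genotypes overlap in the other 8 panels.

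Of the 3 tested CD3 chains, Cd3e was called and Cd3d and Cd3g did not pass the test. Cd3e, which pairs with the delta or the gamma chain in the receptor complex, had log2 ratios of 0.19, 0.04, 0.17 and 0.26 on EED cKO replicates 1 to 4 and of -0.17, -0.52, -0.22 and -0.58 on control replicates 1 to 4. Every EED cKO array was higher than every control array. EED cKO exceeded control by 0.54 on the log2 scale, or 1.45-fold, with a standard error of 0.09 (limma adjusted p = 0.00349, 95% interval 0.34 to 0.73). The exact permutation test over the 8 arrays gave p = 0.0286 (two-sided), the smallest that 4 against 4 arrays allow. The difference was 0.38 between the Cy3-labeled samples and 0.70 between the Cy5-labeled samples. It came from the sample channel, where the log2 difference was 0.50 (limma adjusted p = 0.00904), while the reference channel of the same probe differed by -0.04 (limma adjusted p = 0.854). The call was kept in 23 of 24 alternative settings, not all of them independent. It was missed in the methods' t-test after Benjamini-Hochberg adjustment (adjusted p = 0.0604).

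Cd3d, the delta chain, had log2 ratios of 0.87, 0.04, 0.21 and 0.71 in EED cKO and of 0.45, 0.57, 0.61 and 1.21 in control. Control replicate 4 was the highest of the 8 arrays and the genotypes overlapped. EED cKO minus control was -0.25 with a standard error of 0.21 (limma adjusted p = 0.432, 95% interval -0.73 to 0.22). Its spot was dim, with a median sample signal of 43 to 124.5 against a local background of 21 to 24, and the background offset draws the ratios of such spots toward 0. With the Feature Extraction log ratio, which has no offset, the same difference was -0.72 (limma adjusted p = 0.362).

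Cd3g, the gamma chain, had log2 ratios of -1.03, -1.58, -1.32 and -1.03 in EED cKO and of -1.40, -1.60, -1.39 and -0.77 in control. Control replicate 4 was again the highest array. The difference between the genotypes was 0.05 with a standard error of 0.19 (limma adjusted p = 0.883, 95% interval -0.37 to 0.47), and its sign turned in 8 of 24 alternatives. Whether the chains differed from each other was tested on the within-array difference of 2 chains, a test chosen after their values were seen. Cd3e minus Cd3d was higher in EED cKO by 0.79, Cd3e minus Cd3g by 0.49, and Cd3d minus Cd3g was lower, at -0.30. Each of the 3 exact permutation tests gave p = 0.0571 (two-sided, n = 4 against 4, adjusted p = 0.0571 over the 3), so none of these differences passed 0.05.

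Cd247, the zeta chain, was at the limit of detection. Of its 2 probes, the dimmer was above background on 0 of 8 arrays. The brighter was above background on 2 of 4 EED cKO arrays, replicates 1 and 3, both with the sample in Cy3, and on 0 of 4 control arrays. On the Cy3 arrays its median sample signal was 42.5 and 59 in EED cKO and 44 and 55 in control, so the signals overlapped. In a fit without the filter on dim probes the log2 fold change was -0.02 (limma adjusted p = 0.863).

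Lck, the kinase that phosphorylates the CD3 and zeta chains, had log2 ratios of -1.28, -1.46, -1.35 and -1.27 in EED cKO and of -1.13, -1.51, -1.70 and -1.29 in control. The EED cKO arrays lay within the range of the control arrays. Their means differed by 0.07 with a standard error of 0.12 (limma adjusted p = 0.714, 95% interval -0.20 to 0.34). Thus, among the 4 tested T cell genes, the receptor chain Cd3e was called and the other 3 did not pass the test.

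To show the sequence around the start of the CD3 genes, whose 3 chains are encoded next to one another on chromosome 9, the RefSeq promoter windows (build GRCm38.p6, 250 bases before to 50 after the start) are given 5′ to 3′ on the strand of the gene. Capitals mark matches, on either strand, to the E-box, a sequence bound by E proteins with the letters CAGGTG, which read CACCTG on the opposite strand, and to the ETS core, with the letters AGGAAG, which read CTTCCT on the opposite strand.
Cd3e (chr9:45009562-45009861, minus strand): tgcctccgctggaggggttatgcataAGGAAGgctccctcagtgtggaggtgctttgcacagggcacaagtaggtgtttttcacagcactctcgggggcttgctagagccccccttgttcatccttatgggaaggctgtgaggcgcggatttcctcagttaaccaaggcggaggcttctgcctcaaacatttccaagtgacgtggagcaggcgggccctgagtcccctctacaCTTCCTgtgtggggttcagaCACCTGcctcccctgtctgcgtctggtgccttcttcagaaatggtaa
Cd3d (chr9:44981536-44981835, plus strand): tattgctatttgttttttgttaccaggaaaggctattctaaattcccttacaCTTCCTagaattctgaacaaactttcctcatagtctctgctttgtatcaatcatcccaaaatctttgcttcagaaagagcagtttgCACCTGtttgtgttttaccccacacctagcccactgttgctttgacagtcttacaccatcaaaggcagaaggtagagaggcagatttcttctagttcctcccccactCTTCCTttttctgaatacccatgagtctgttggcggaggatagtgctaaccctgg
Cd3g (chr9:44980382-44980681, minus strand): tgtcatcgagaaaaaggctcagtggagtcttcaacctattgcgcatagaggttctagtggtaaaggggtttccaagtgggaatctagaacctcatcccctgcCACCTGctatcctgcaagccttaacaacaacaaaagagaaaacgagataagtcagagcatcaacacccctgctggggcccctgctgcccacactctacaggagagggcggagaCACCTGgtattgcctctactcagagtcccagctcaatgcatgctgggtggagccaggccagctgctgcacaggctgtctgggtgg
The E-box was found 1 time in the Cd3e window, 1 time in Cd3d and 2 times in Cd3g, and the ETS core 2, 2 and 0 times, with 0 overlapping matches. Of 32851 windows of this length, 20.2% held the E-box and 35.4% the ETS core. The windows differed in CpG content, which was 8 CpG dinucleotides for Cd3e, 1 for Cd3d and 4 for Cd3g, beside a median of 7 over all windows. The RUNX core TGTGGT (16.8% of windows) was matched in 0 of the 3, and the GATA core AGATAA (11.2% of windows) 1 time in Cd3g. The motifs were chosen after the expression values were seen, and a match is a description of the letters and not a binding site.

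Among the other members, the table held windows for Cd247, Lck, Ptprc, Coro1a and Fcer1g, so that 8 of the 10 genes were matched. Tyrobp and Cd52 are named only. The E-box was present in the windows of Cd247 and in both windows of Lck, and in none of those of Ptprc, Coro1a and Fcer1g. The 2 Coro1a windows held 19 and 10 CpG dinucleotides, and the Ptprc windows 4 and 2.

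Ptprc had log2 ratios of -1.94, -2.33, -1.96 and -2.29 in EED cKO and of -1.98, -2.39, -2.10 and -2.05 in control. The arrays of both genotypes spanned nearly the same range. The means differed by 0.0031 with a standard error of 0.09 (limma adjusted p = 0.985, 95% interval -0.19 to 0.20), and the sign turned in 9 of 24 alternatives. Its probe gave a median sample signal of 48.5 to 97 against a local background of 22 to 26, so the offset bears on this value as well.

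Coro1a had log2 ratios of -1.12, -1.39, -1.14 and -1.19 in EED cKO and of -1.79, -1.22, -1.37 and -0.83 in control. The lowest and the highest array were both control arrays, replicates 1 and 4. For Coro1a, EED cKO minus control was 0.09 with a standard error of 0.16 (limma adjusted p = 0.725). Fcer1g had log2 ratios of -1.98, -2.41, -1.82 and -1.85 in EED cKO and of -2.69, -2.10, -2.31 and -1.33 in control. The same 2 control arrays were the extremes, and EED cKO minus control was 0.10 with a standard error of 0.24 (limma adjusted p = 0.819).

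Tyrobp had the widest difference of the genes that were not called. Its log2 ratios were 0.70, -0.08, 1.03 and 0.62 in EED cKO and -0.87, -0.11, 0.07 and 0.62 in control. Its log2 fold change of 0.64 had a standard error of 0.31 (limma adjusted p = 0.172, 95% interval -0.056 to 1.33). It was 1.26 between the Cy3-labeled samples and 0.02 between the Cy5-labeled samples, a gap between the dyes that was not tested. Without control replicate 1 the log2 fold change was 0.33 (limma adjusted p = 0.376), and without control replicate 4 it was 0.91 (limma adjusted p = 0.0514).

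Cd52 had log2 ratios of 0.40, -0.18, 0.75 and 0.29 in EED cKO and of -0.86, -0.16, -0.19 and 0.82 in control. Control replicates 1 and 4 were again the lowest and the highest array. On average EED cKO was 0.41 above control with a standard error of 0.31 (limma adjusted p = 0.385), with 1.1 between the Cy3-labeled and -0.28 between the Cy5-labeled samples. It was 0.14 without control replicate 1 (limma adjusted p = 0.765) and 0.74 without control replicate 4 (limma adjusted p = 0.0552). The EED cKO arrays moved them as well. Without EED cKO replicate 3 the log2 fold change was 0.45 for Tyrobp (limma adjusted p = 0.391) and 0.20 for Cd52 (limma adjusted p = 0.720), and without EED cKO replicate 2 it was 0.90 (limma adjusted p = 0.0565) and 0.64 (limma adjusted p = 0.177).

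**Figure D2:**
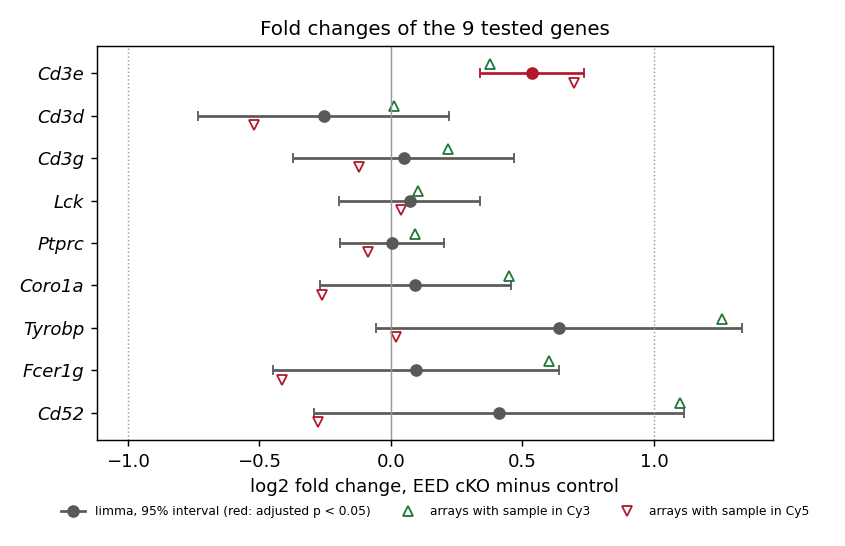
Log2 fold change of EED cKO minus control (horizontal axis) for the 9 tested genes, as circles with 95% intervals from limma, and as triangles within the arrays of each sample dye. The interval of Cd3e, 0.34 to 0.73, lies above 0, the other 8 intervals include 0, and the dotted lines mark a 2-fold change.

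Across the 8 arrays, Coro1a, Tyrobp, Fcer1g and Cd52 varied together. Control replicate 1 was the lowest array for all 4, and control replicate 4 the highest for Coro1a, Fcer1g and Cd52. The correlation was computed for all 36 pairs of the 9 tested genes, with exact permutation of the pairings and Benjamini-Hochberg adjustment over the 36. Among these 4 genes, Pearson's r ranged from 0.81 to 0.96 over their 6 pairs, and 4 of the 6 had an adjusted exact permutation p below 0.05. For Coro1a and Fcer1g, r was 0.96 (exact permutation p = 0.000546, adjusted p = 0.00982) and Spearman's rho 0.93 (exact permutation p = 0.00223, adjusted p = 0.0268). For Tyrobp and Cd52, the ITAM adaptor and the surface glycoprotein, r was 0.95 (exact permutation p = 0.00149, adjusted p = 0.0143) and rho 0.76 (exact permutation p = 0.0368, adjusted p = 0.165). Cd52 also varied with Coro1a (r = 0.93, exact permutation p = 0.000248, adjusted p = 0.00893) and with Fcer1g (r = 0.93, exact permutation p = 0.00159, adjusted p = 0.0143), and rho was 0.95 for both (exact permutation p = 0.00114, adjusted p = 0.0205). Tyrobp with Coro1a and Tyrobp with Fcer1g missed it (exact permutation, adjusted p = 0.0732 and adjusted p = 0.0768).

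Without the 2 arrays farthest from the median of the first gene, r over the 6 pairs was 0.73 to 0.92, which was not tested. For Tyrobp with Fcer1g and with Cd52, the arrays left out were EED cKO replicate 3 and control replicate 1. Control replicate 4, the highest for Fcer1g and Cd52, stayed in for those pairs. For the other pairs, control replicates 1 and 4 were left out. With the Feature Extraction log ratio, r over the 6 pairs was 0.82 to 0.98. After removal of the dye and genotype means, which leaves the spread within genotypes, r over the 6 pairs was 0.95 to 0.98. Of the other 23235 tested targets, 1.32% had an r above 0.8 with Tyrobp.

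Cd3d and Cd3g, the delta and gamma chains shown above with their start sites, also varied together, with r of 0.82 (exact permutation p = 0.0122, adjusted p = 0.0732) and rho of 0.76 (exact permutation p = 0.0368, adjusted p = 0.165). Without EED cKO replicate 2 and control replicate 4, r was 0.53, so this relation depended on those arrays. It was 0.92 after removal of dye and genotype. For Cd3d, 0.151% of the other targets had an r above 0.8. The values of Cd3e split by genotype, so no r over all arrays is given for its 8 pairs, of which 0 passed the adjustment (exact permutation, lowest adjusted p = 0.638). With dye and genotype removed, the r of Cd3e with the other 8 genes ranged from -0.62 for Coro1a to 0.12 for Lck, and it was -0.12 with Cd3d and -0.08 with Cd3g. On the ratios as measured, its r with Coro1a was 0.80 within the 4 EED cKO arrays and -0.88 within the 4 control arrays. With Fcer1g it was 0.91 and -0.87, and with Ptprc 0.29 and 0.51. With Cd3d it was 0.77 and -0.72, with Cd3g 0.91 and -0.44, and with Lck 0.95 and 0.0026. With Tyrobp it was 0.74 and -0.72, and with Cd52 0.63 and -0.81. The sign thus differed between the genotypes for Coro1a, Fcer1g, Cd3d, Cd3g, Tyrobp and Cd52, and this was not tested. The dye was left in these values. On the control arrays, Cd3e was lower with the sample in Cy5 than in Cy3, and Coro1a and Fcer1g were higher. Ptprc and Lck gave an r between -0.08 and 0.46 with each of the other genes apart from Cd3e, and 0 of their pairs passed the adjustment. With dye and genotype removed, the r of Ptprc was 0.84 with Cd3g, 0.71 with Fcer1g, 0.66 with Cd52 and Cd3d, 0.62 with Lck, 0.58 with Coro1a and 0.50 with Tyrobp, while that of Lck with the genes other than Ptprc and Cd3e ranged from -0.15 for Tyrobp to 0.46 for Cd3g.

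**Figure D3:**
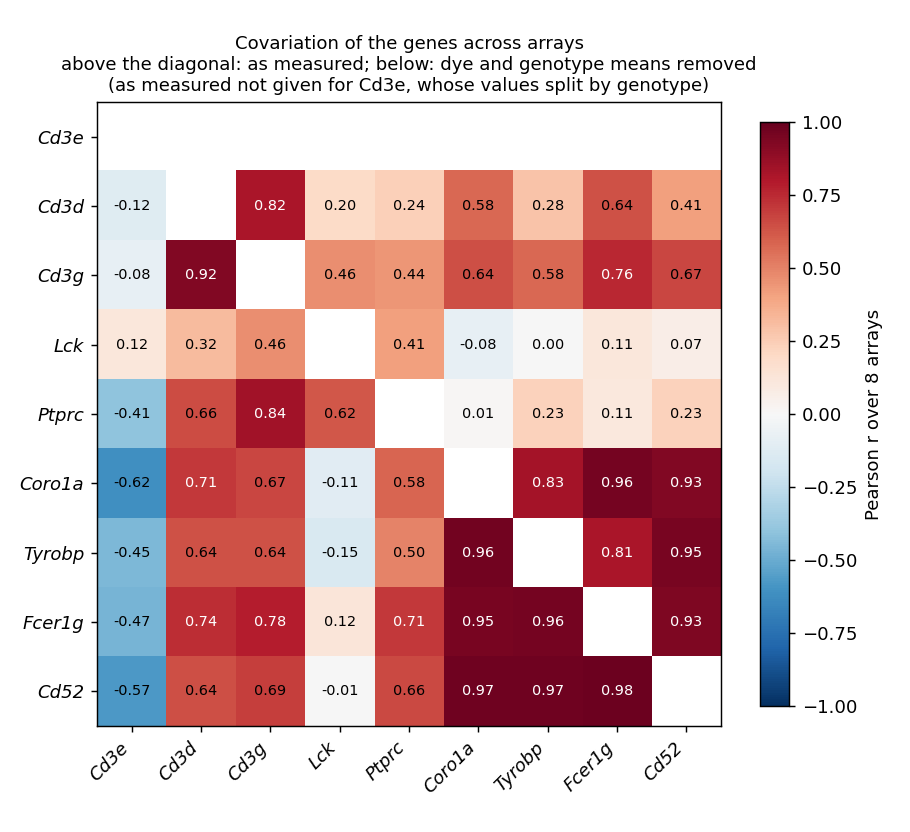
Pearson's r over 8 arrays (colour scale and printed value) for each pair of the 9 tested genes, above the diagonal on the ratios as measured and below it after removal of dye and genotype means. Coro1a, Tyrobp, Fcer1g and Cd52 form a block with r of 0.81 to 0.96 above and 0.95 to 0.98 below the diagonal, and the row of Cd3e is left empty above it because its values split by genotype.

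The targets most like the 2 subsets were found by their correlation, after removal of the dye means, with the mean standardized profile of each subset over the 8 arrays, among 13368 targets with a symbol and above background on all arrays. For the general leukocyte genes (Ptprc, Coro1a, Tyrobp, Fcer1g and Cd52) these were Cd86 (r = 0.99), a costimulatory ligand of antigen-presenting cells, Ly86 (r = 0.99), a partner of a Toll-like receptor homolog, Evi2a (r = 0.98), Ncf4 (r = 0.98), a subunit of the phagocyte oxidase, and Fcgr2b (r = 0.98), the inhibitory Fc receptor. By this selection they follow the mean profile of the members. Ptprc followed the other 4 less closely, with r of 0.42 to 0.70 after removal of the dye means. Its lowest array was control replicate 2. Cd86 had its lowest log2 ratio, -0.39, on control replicate 1 and its highest, 0.87, on control replicate 4. For the T cell genes (Cd3e, Cd3d, Cd3g and Lck) the most alike targets were Ppp1r11 (r = 0.99), Dyrk3 (r = 0.98), Mybpc1 (r = 0.98), Olfr1339 (r = 0.97) and D5Ertd605e (r = 0.97), of which none was on the lists of leukocyte genes used here. Cd3e, whose r with Cd3d and Cd3g was -0.12 and -0.08 with dye and genotype removed, was averaged with them in the T cell profile. The best of 13368 correlations over 8 points are high by selection, and they are given as a description.

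**Figure D4:**
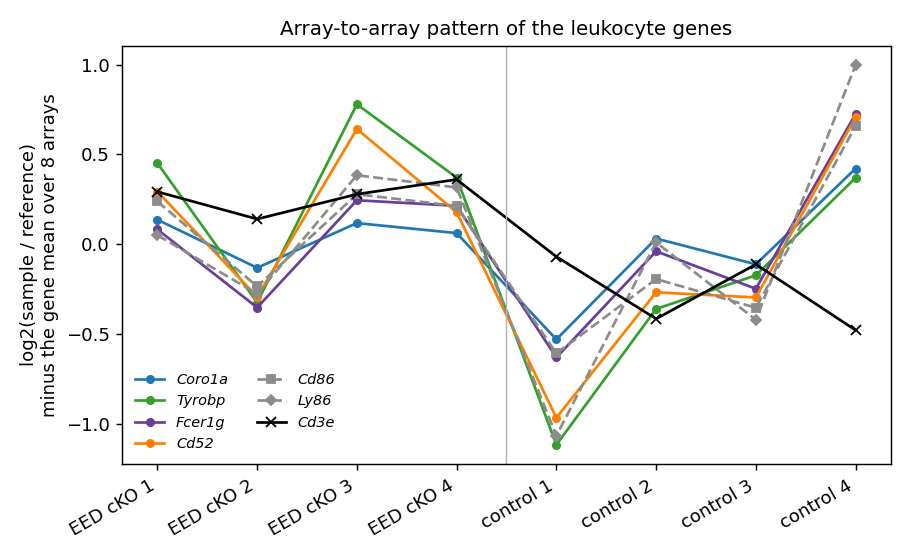
Log2 ratio of sample over reference minus the mean of the gene over 8 arrays (vertical axis), by array, for Coro1a, Tyrobp, Fcer1g and Cd52 (solid, coloured), for Cd86 and Ly86 (dashed, grey) and for Cd3e (black). The leukocyte genes dip on control replicate 1 and reach high values on control replicate 4, where Cd3e is at its lowest log2 ratio of -0.58.

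Other genes of the same cells were read from 3 further lists. Their counts stand beside 11.8% called higher and 9.89% lower over all tested targets, and they are not read as a result about the lists. Of 43 other T cell identity and receptor genes, 23 were tested, 2 were higher and 3 lower, and the median log2 fold change was -0.06. Cd4, a T cell coreceptor, was 0.40 higher (standard error 0.08, limma adjusted p = 0.00834) and Nkg7, a cytotoxic granule protein, 0.42 higher (limma adjusted p = 0.0131). Bcl11b, a T lineage transcription factor also expressed in keratinocytes, was lower at -0.96 (limma adjusted p = 0.0157), as was Gata3, likewise expressed in both, at -0.52 (limma adjusted p = 0.0207), and Ctsw, a cathepsin of cytotoxic cells, at -0.31 (limma adjusted p = 0.0453). The call of Ctsw was kept in 11 of 24 alternatives and that of Gata3 in 16. The T cell receptor genes Trdc and Trac, the signaling protein Themis and the coreceptor Cd8a were not among the tested genes.

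The 38 genes of antigen receptor and ITAM signaling held steps after the CD3, Tyrobp and Fcer1g chains, and also other receptors and receptor chains. Of these 38 genes, 30 were tested, 4 were higher and 0 lower, with a median of 0.09. The calls were Nfatc1 at 0.70 (limma adjusted p = 0.00435), Prkcq at 0.56 (limma adjusted p = 0.00862), Nfatc2 at 0.48 (limma adjusted p = 0.0423) and Plcg2 at 0.38 (limma adjusted p = 0.0459). Nfatc1 and Nfatc2 are calcium-responsive transcription factors, Prkcq a protein kinase C and Plcg2 a phospholipase. Nfatc2 kept its call in 9 and Plcg2 in 12 of 24 alternatives. The kinase Zap70, which binds the phosphorylated CD3 chains, did not pass the test at 0.17 (limma adjusted p = 0.359), nor did Lat, its adaptor substrate, at 0.25 (limma adjusted p = 0.0852), or Syk at 0.27 (limma adjusted p = 0.0816).

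Of 41 other pan-leukocyte genes, 33 were tested, 3 were higher and 1 lower, with a median of 0.06. Runx1, a transcription factor also active in hair follicle epithelium, was higher by 0.74 (limma adjusted p = 0.00688), Cd37, a tetraspanin, by 0.28 (limma adjusted p = 0.0215) and Cyba, an oxidase subunit, by 0.68 (limma adjusted p = 0.0328). The chemokine receptor Cxcr4 was lower at -0.49 (limma adjusted p = 0.0271). The calls of Cyba and Cd37 were kept in 12 and 14 of 24 alternatives, those of Runx1 and Cxcr4 in 22 and 18. Integrin chain Itgb2 and the leukocyte membrane protein Laptm5 did not pass, with values of 0.18 (limma adjusted p = 0.176) and 0.17 (limma adjusted p = 0.453).

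The Langerhans and dendritic cell markers were the list whose pattern across arrays was most like that of Tyrobp. After removal of the dye, 10 of 13 tested genes had an r above 0.8 with Tyrobp, beside 2.75% of all tested targets. So did 11 of 33 other pan-leukocyte genes, 4 of 30 receptor and ITAM signaling genes, 3 of 10 macrophage markers and 0 of 23 other T cell genes. With Cd3e, 0 of the 13 Langerhans and dendritic cell markers had such an r, beside 15.1% of all tested targets. Genotype was kept in this r, and Cd3e split by genotype. The count therefore cannot tell whether the markers and Cd3e varied together within genotypes. Of the 13, 4 were higher and 0 lower, beside 11.8% and 9.89% of all tested targets. The higher ones were the MHC class II genes H2-Ab1 (log2 fold change 1.55, limma adjusted p = 0.00935), H2-Eb1 (1.08, limma adjusted p = 0.0209) and H2-DMb1 (0.61, limma adjusted p = 0.0221), and Cd74, the invariant chain (0.46, limma adjusted p = 0.0439). The call of H2-Ab1 was kept in 23 of 24 alternatives, those of H2-Eb1 and H2-DMb1 in 16 each and that of Cd74 in 9. The class II genes H2-Aa at 0.36 (limma adjusted p = 0.157) and H2-DMa at 0.17 (limma adjusted p = 0.423) did not pass. The mean log2 ratio of the list was -0.04 to 0.38 in EED cKO and -0.57 to 0.33 in control, so the ranges overlapped, with control replicate 1 lowest. Cd207 (langerin), the defining Langerhans cell gene, did not pass the filter, and the part of these cells in the values of Tyrobp and Cd52 was not tested.

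**Figure D5:**
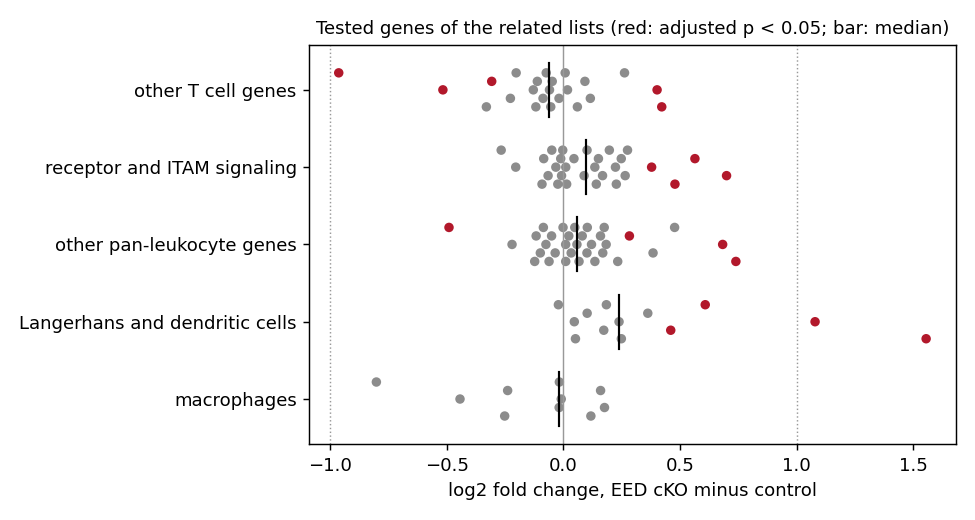
Log2 fold change of EED cKO minus control (horizontal axis) of each tested gene of 3 related gene lists and 2 marker lists, in red where the limma adjusted p was below 0.05, with the list median as a bar. Red points lie on both sides of 0 for the other T cell genes (2 higher, 3 lower), and the Langerhans and dendritic cell list holds 4 higher and 0 lower. Over all tested targets, 11.8% were higher and 9.89% lower.

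Markers of other cells that the epidermal sheet could hold were read in the same fit. The shares over all tested targets, 11.8% higher and 9.89% lower, stand beside their counts. Of 10 tested macrophage markers, 0 were called, with a list mean of -0.0056 to 0.21 in EED cKO and -0.49 to 0.82 in control, again with control replicates 1 and 4 at the ends. At 3 tested genes each, mast cell and B cell markers gave 0 calls, and the mast cell proteases Cpa3, Cma1 and Mcpt4 were not tested. Of 4 neutrophil markers, Camp was higher at 0.29, and of 4 erythroid markers 0 were called. The globin genes Hba-a1, Hba-a2 and Hbb-bt had log2 fold changes of 1.21 (limma adjusted p = 0.116), 1.14 (limma adjusted p = 0.0985) and 1.22 (limma adjusted p = 0.145), and the erythrocyte anion exchanger Slc4a1 of 0.0060 (limma adjusted p = 0.969). The mean of the erythroid list reached 2.65 in EED cKO and ranged from 0.65 to 2.43 in control, the genotypes overlapped, and its part in the leukocyte values was not tested. Of 8 fibroblast markers, Lum (0.50) and Fbn1 (0.30) were higher, of 7 melanocyte markers Sox10 was lower (-0.50), and of 11 keratinocyte markers Itga6 (-0.74) and Col17a1 (-0.33) were lower. Each of these calls is at a limma adjusted p below 0.05. Those of Fbn1 (6 of 23 alternatives), Sox10 (9 of 24) and Col17a1 (9 of 24, with the opposite sign in 2) were the least stable. The melanocyte and keratinocyte calls went against most of their lists. There, 6 of 7 and 8 of 11 log2 fold changes were above 0, with medians of 0.17 and 0.097.

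The list means of the endothelial and of the Merkel cell markers did not overlap between the genotypes. Over all tested targets, 11.8% were called higher. Of 9 endothelial markers 4 were tested and 2 were higher, Pecam1 at 0.89 and Kdr at 0.62, and the list mean was 0.62 to 0.76 in EED cKO and 0.09 to 0.30 in control. The defining markers Cdh5 and Tek were not tested. All 6 Merkel cell markers were higher, with a list mean of -0.95 to -0.82 in EED cKO and -1.67 to -1.53 in control. After removal of the dye, r with Cd3e was above 0.8 for all 6 Merkel cell and 2 of 4 endothelial markers. The share over all tested targets was 15.1%. Genotype was kept in this r, and Cd3e and both list means split by genotype. The counts therefore cannot tell whether these markers and Cd3e varied together within genotypes. The part of these cells in the difference of Cd3e was not tested.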

How the data were processed

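RNA of 8 epidermis samples was hybridized to 8 Agilent mouse arrays against a common reference. The authors extracted the spots with Agilent Feature Extraction 12.0.1.1 and deposited spot and background intensity per channel without normalization between arrays, a log10 ratio after the background and dye correction of that software, and a table of log2 ratios, which lay within 7.33e-06 of the log2 ratio of the processed signals on EED cKO replicate 1. No spot was saturated. Here median intensities were corrected with normexp (offset 50) and loess in limma 3.58.1 (R 4.3.3). Probes were named through RefSeq accessions (28026 of 29796 matched), the brightest probe stood for a target, and 23236 targets whose sample channel was above background on 3 or more of the 4 arrays in either genotype were tested, 14985 of them with a symbol. The number of arrays limits the precision.

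Genotypes were compared with lmFit and eBayes, the sample dye in the model and p-values adjusted by Benjamini-Hochberg. The fit was tested on simulated data. Named genes were the 10 members, up to 3 calls per list and direction, defining markers, and the 5 targets most like each subset. Plcg2, Cd74, H2-Aa, H2-DMa, Zap70, Lat, Syk, Itgb2 and Laptm5 fall outside this rule and were picked with their values known. The members and lists were chosen with earlier results of these data known. Same-numbered samples deviated together (correlations 0.49, 0.68, 0.33 and 0.36 across targets, and 0.13 and 0.46 after removal of dye), and the number in the labels also marks slide column and dye. The alternatives were other background corrections, scalings, filters, probe rules, covariates and tests, and each array left out.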

Additional observations from a re-analysis of the deposited data

How the results depend on the processing

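Of the 9 tested genes, 0 were called lower and 0 passed the 2-fold limit in any of 24 alternatives, and Cd3e kept its direction in all 24, with log2 fold changes of 0.38 to 0.58. Aquantile normalization leaves ratios unchanged by construction, and the deposited table nearly repeats the Feature Extraction log ratio, so neither is independent. The other filters, the probe rules, no dye term, the replicate block, the intensity trend and the methods' t-test left the Cd3e log2 fold change at 0.54. Its direction could not turn in those settings. With the methods' t-test 914 targets passed the adjustment, and 0 members were called higher. At the methods' own threshold, without adjustment and with the fold limit, 0 members passed. Calls over all targets were 2555 with median centring, 2361 with no dye term, 2810 with a Y-linked covariate, and 2725 to 5067 with 1 array left out, the fewest without control replicate 2 (2725), EED cKO replicate 4 (2950) and EED cKO replicate 3 (3350). With the replicate block 5986 targets were called, no call of a member changed, and among the lists the higher pan-leukocyte calls went from 3 to 4 and the lower mast cell calls from 0 to 1.

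The sign of 5 uncalled genes turned, and the cause was not tested. With median centring the log2 fold change was -0.064 for Cd3g, -0.039 for Coro1a, -0.067 for Fcer1g, -0.10 for Lck and -0.14 for Ptprc. With the Y-linked covariate it was -0.15 for Cd3g, -0.0060 for Fcer1g, -0.10 for Lck and -0.11 for Ptprc. With the Feature Extraction log ratio, and with the deposited table, it was -0.11 for Cd3g and -0.18 for Ptprc. It was -0.083 for Cd3g with the sample channel alone and -0.036 for Ptprc with no background correction. With 1 array left out it ranged from -0.084 to 0.25 for Cd3g, -0.061 to 0.24 for Coro1a, -0.083 to 0.35 for Fcer1g, -0.048 to 0.18 for Lck and -0.047 to 0.088 for Ptprc. Dim spots limit Cd3d, Cd3g, Cd247 and Ptprc.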
